A study of Mus musculus with 17 samples.

Results

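Ribosome biogenesis genes encode the machinery that makes ribosomes, and 36 of them, given as a list of symbols covering the steps from transcription of ribosomal RNA to maturation of both subunits, were followed across every polyA RNA-seq library with values. All 36 were found, each as 1 row, among 24453 gene models. Transcript levels were measured as RPKM, read counts scaled to exon length and to library depth, in 13 libraries of mouse macrophages. Immortalised bone marrow-derived macrophages (iBMDMs) came from C57Bl/6EiJ mice, were transformed with Myc and mutant BRAF, were used at passage 3 to 8 and all received vehicle. They carried Cas9 and either a scramble control (Scramble, titled zsGreen) or guides against Atf3 (Atf3KO), Jun (JunKO) or Jund (JunDKO), with 2 libraries in each of the 4 groups. They were sorted pools of infected cells, and the share of edited cells is not given in the sources used here. Thioglycollate-elicited macrophages (TGEMs) were unedited primary cells washed from the peritoneum of mice. They were left in PBS (vehicle) or stimulated for 1 h with KLA (Kdo2 lipid A), an agonist of the receptor TLR4. The C57Bl/6EiJ cells are represented by 1 library of each treatment, the Balb/cJ cells by 1 with vehicle and 2 with KLA. The 4 GRO-seq samples of the series were not analysed here.

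Ribosomes are built mainly in the nucleolus, where RNA polymerase I transcribes a long precursor of the ribosomal RNAs. Small nucleolar ribonucleoproteins (snoRNPs) then modify this precursor, box C/D particles by methylation and box H/ACA particles by pseudouridylation, while large sets of assembly factors fold and trim it into the small and the large subunit. The pathway is active in growing cells, and the transcription factor MYC is a well-known activator of many of its genes.

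The libraries held 1553296 to 18444441 reads, recovered from the steps of the RPKM values, of which 74.1% to 86.4% were exonic. Counting error did not account for the spread of replicates (chi-square over its degrees of freedom 3.67 to 81.04). Among the iBMDM groups this value was 27.59 for Atf3KO, 4.01 for Scramble, 3.74 for JunKO and 3.67 for JunDKO. The iBMDM fit drew a single spread for each gene from all 4 groups, so standard errors for Atf3KO also rest on the other groups. Nothing in the labels says that the replicates came from separate cultures or mice, so p-values measure the spread between these libraries. Macrophage markers were high in both kinds of cell. Summed B cell markers were at 10.1 to 23.9 RPKM and fibroblast and mesothelial markers at 29.8 to 55.1 RPKM in TGEMs, against at most 0.488 and 0.221 RPKM in iBMDMs. All libraries were labelled male, but Xist had 863 to 8676 reads in the TGEM libraries and 0 to 3 in the iBMDM libraries. The transcript levels of the targeted genes are no check of the knockout labels. The study's methods check the knockouts at the protein level by western blotting, which was not analysed here. Atf3 was at 154 and 169 RPKM in the libraries labelled Atf3KO and at 80.7 and 77.4 RPKM in Scramble. In JunKO, Jun was at 26.2 and 20.5 RPKM, and in Scramble it was at 17.6 and 18.5 RPKM. In JunDKO, Jund was at 6.94 and 6.07 RPKM, which is below 9.19 and 8.33 RPKM in Scramble and 22.6 and 83.0 RPKM in those labelled Atf3KO. The exonic level of an edited gene need not fall, so the groups are named by their labels alone.

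The ribosome biogenesis genes stood far higher in iBMDMs than in TGEMs. Their summed level was 1523 to 2001 RPKM across the 8 iBMDM libraries and 285 to 405 RPKM across the 5 TGEM libraries. As a share of exonic reads this was 0.568% to 0.801% in iBMDMs and 0.0940% to 0.180% in TGEMs. In 32 of 36 genes the lowest iBMDM library lay above the highest TGEM library, against 24.0% of all 10929 tested genes. The 4 genes whose libraries overlapped were Polr1c, Fbl, Wdr12 and Rrp1b, and in Fbl, Wdr12 and Rrp1b the overlap came from the libraries labelled Atf3KO alone.

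**Figure D1:**
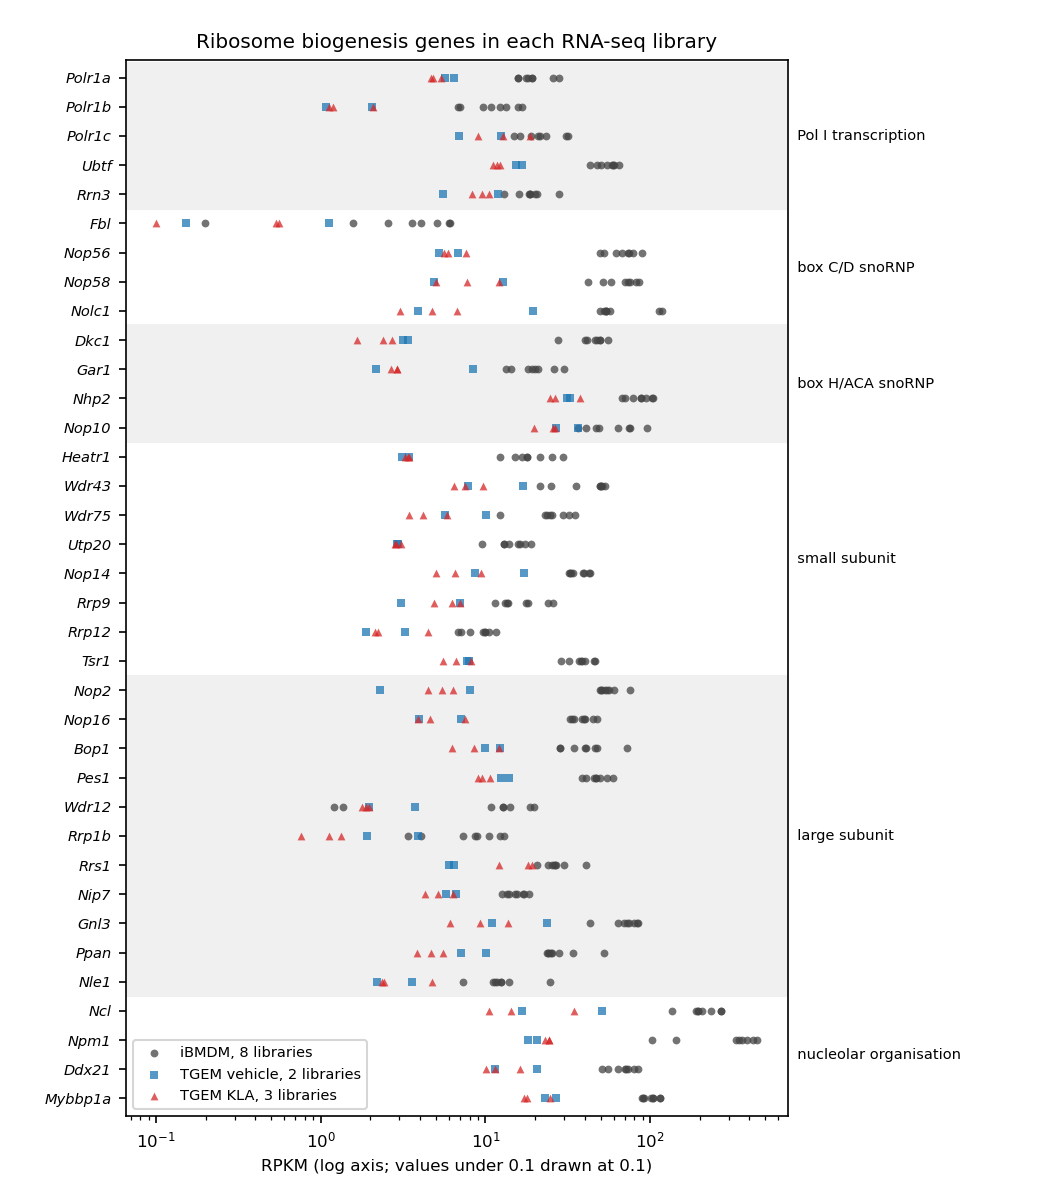
RPKM (log axis) of the 36 ribosome biogenesis genes, 1 row a gene, grouped by step, with a point for each of 8 iBMDM libraries (grey), 2 vehicle TGEM libraries (blue) and 3 KLA TGEM libraries (red), values under 0.1 drawn at 0.1. Grey points lie to the right of blue and red points without overlap in 32 of 36 genes.

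The order of levels within the list differed between the cells. In iBMDMs the highest mean level was that of Npm1 (nucleophosmin, a histone chaperone of the nucleolus), with a lowest library of 102 RPKM, a median of 354 RPKM and a highest of 448 RPKM. Ncl (nucleolin, an RNA-binding protein of the nucleolus) followed at 135 to 270 RPKM and Mybbp1a, a nucleolar MYB-binding protein, at 89.0 to 115 RPKM. The order differed in Atf3KO, where the mean of Ncl (165 RPKM) lay above that of Npm1 (123 RPKM). There Nolc1 (115 RPKM) also lay above Mybbp1a (109 RPKM). In TGEMs the highest mean was that of Nhp2, a core protein of box H/ACA snoRNPs, at 31.2, 24.6, 32.5, 37.3 and 26.5 RPKM in the C57Bl/6EiJ vehicle, C57Bl/6EiJ KLA, Balb/cJ vehicle and both Balb/cJ KLA libraries. Nop10, from the same particle, came next at 19.8 to 36.6 RPKM, followed by Ncl at 10.4 to 51.1 RPKM and Npm1 at 18.1 to 24.4 RPKM, so neighbours in this order overlapped. The lowest mean in both kinds of cell was that of Fbl (fibrillarin, the methyltransferase of box C/D snoRNPs), at 0.198 to 6.10 RPKM in iBMDMs and 0 to 1.12 RPKM in TGEMs, from 0 to 127 reads. Its partners in the same particle, Nop56 and Nop58, were at 41.7 to 89.5 RPKM in iBMDMs. How reads shared with near-identical copies were counted is not stated, so the levels of Fbl and of Npm1, which has many processed pseudogenes, are uncertain.

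The comparison of Scramble iBMDMs with vehicle TGEMs of the same strain asked how far the genes differ between the line and the primary cells without treatment or targeting guides. A call required a limma-trend adjusted p under 0.05, a 2-fold or greater change, and 16 RPKM or more as the mean of either group. By this rule 27 of 36 ribosome biogenesis genes were called, all higher in Scramble, against 13.2% of all tested genes called higher. At an adjusted p under 0.05 alone 33 of 36 were higher, against 30.2% of all genes. The median log2 fold change of RPKM + 1 was 2.09 over the list and 0.28 over all genes, and the list spanned 0.23 to 4.23. Beside the vehicle library of C57Bl/6EiJ, which is a single library, the fit drew its spread from all 13 libraries with a term for strain. The call count was 25 without that library and 25 to 26 over the fits that left out 1 library.

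**Figure D2:**
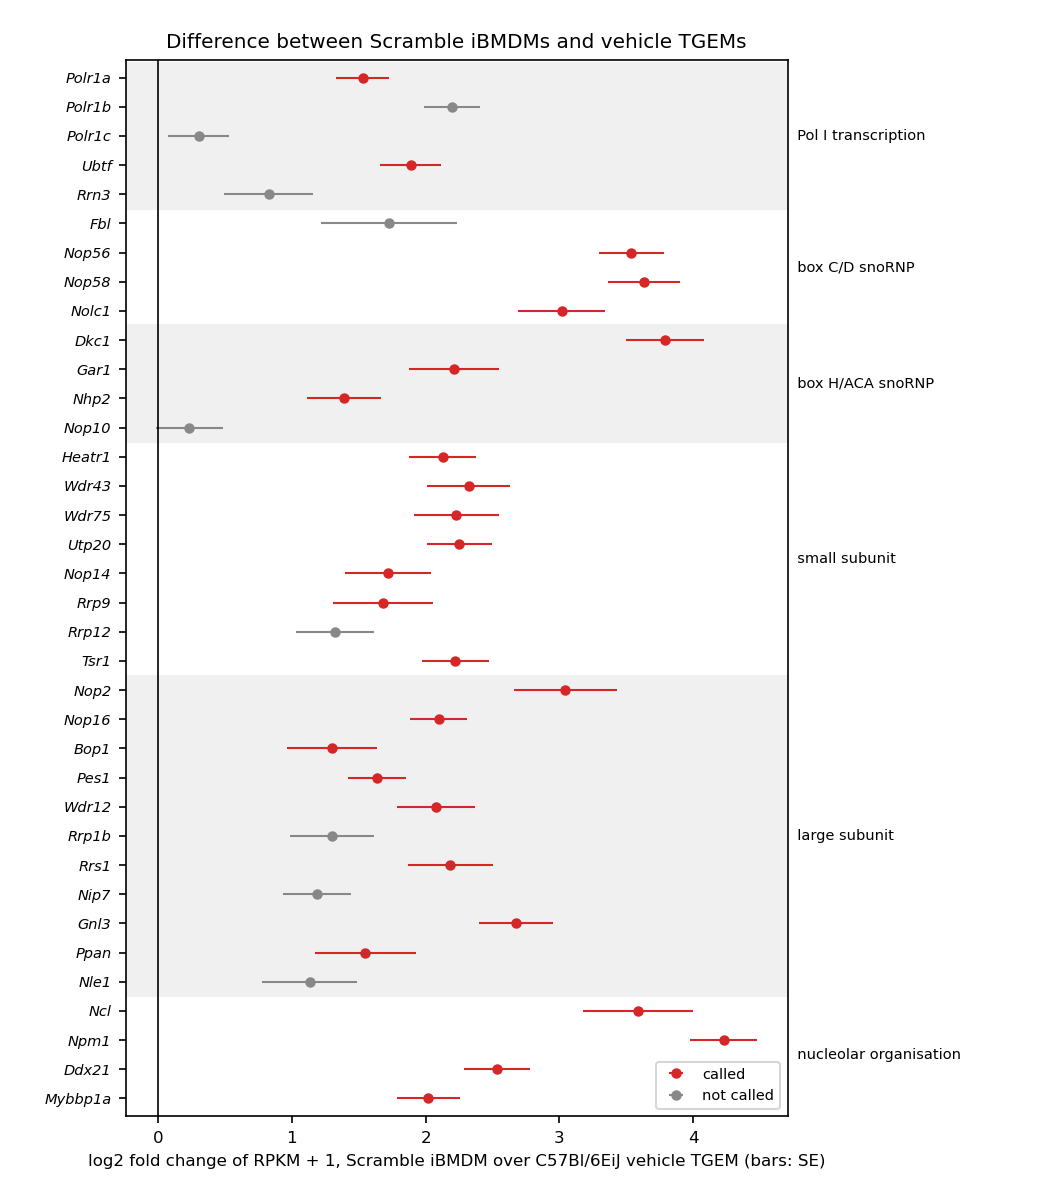
Log2 fold change of RPKM + 1 between Scramble iBMDMs (2 libraries) and the C57Bl/6EiJ vehicle TGEM library for each of 36 genes, with SE bars and the 27 called genes in red. All 36 points lie right of 0, from 0.23 for Nop10 to 4.23 for Npm1.

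The nucleolar proteins and the box C/D genes differed most, with medians of 3.06 and 3.28 on the log2 scale. Npm1 was at 347 and 420.1 RPKM in Scramble and at 20.4 RPKM in the C57Bl/6EiJ vehicle TGEM library, which is 4.23 ± 0.25 higher on the log2 scale (± SE, limma-trend adjusted p = 9.66e-07). Ncl was at 207 and 269 RPKM against 16.7 RPKM (3.59 ± 0.41, limma-trend adjusted p = 6.74e-05). Both Scramble values of each gene lay far above the TGEM value. In the Balb/cJ vehicle library, which this contrast compares only through the strain term, Ncl was higher, at 51.1 RPKM, and Npm1 was at 18.1 RPKM. Ddx21, an RNA helicase that acts with RNA polymerase I, was at 70.3 and 84.8 RPKM against 11.5 RPKM (2.53 ± 0.25, limma-trend adjusted p = 2.37e-05). Mybbp1a was also called, at 104 and 89.0 RPKM against 22.9 RPKM. With a correction for GC content the changes of Npm1, Ncl, Ddx21 and Mybbp1a were 3.73, 3.05, 2.17 and 2.28.

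Among box C/D genes, Nop58 and Nop56 encode the paired core proteins that hold the particle together. Nop58 was at 73.8 and 82.3 RPKM in Scramble and at 4.88 RPKM in the vehicle TGEM library (3.63 ± 0.27, limma-trend adjusted p = 4.35e-06). Nop56 was at 89.5 and 74.5 RPKM against 6.81 RPKM (3.53 ± 0.24, limma-trend adjusted p = 2.58e-06). The exons of Nop56 overlap those of Idh3b on the other strand, and whether counting used strand is not stated. Nolc1, a chaperone of snoRNPs, was at 52.4 and 49.3 RPKM against 3.92 RPKM (3.02 ± 0.32, limma-trend adjusted p = 4.24e-05). With GC correction the changes of Nop58, Nop56 and Nolc1 were 3.07, 3.46 and 3.00. Without the C57Bl/6EiJ vehicle library the Nolc1 change was 2.06. Fbl was higher at an adjusted p under 0.05 but did not reach 16 RPKM, and without that library it did not pass (0.88).

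The box H/ACA genes did not differ alike. Dkc1 encodes dyskerin, the pseudouridine synthase, and was at 49.5 and 55.8 RPKM in Scramble against 3.15 RPKM (3.79 ± 0.29, limma-trend adjusted p = 5.13e-06). Its partners Gar1 (2.21 ± 0.34, limma-trend adjusted p = 4.41e-04) and Nhp2 (1.39 ± 0.28, limma-trend adjusted p = 0.00226) were called with smaller changes. Without the C57Bl/6EiJ vehicle library, where Gar1 was at 2.15 RPKM against 8.46 RPKM in the Balb/cJ one, its change was 1.14. After GC correction the changes of Dkc1, Gar1 and Nhp2 were 3.28, 2.88 and 1.66, so Dkc1 and Gar1 lay closer together. Nop10, the smallest protein of the particle, was at 46.6 and 36.6 RPKM against 36.6 RPKM and was not called (0.23 ± 0.25, limma-trend adjusted p = 0.467), with -0.03 at equal library medians. The Scramble and TGEM values of Nop10 were thus close, while those of Dkc1 were far apart. The exons of Dkc1 and Nhp2 overlap those of Mpp1 and Rmnd5b on the other strand.

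Of 5 genes of RNA polymerase I transcription, 2 were called higher. Ubtf, which marks and opens active ribosomal DNA, was at 64.7 and 58.5 RPKM against 16.6 RPKM (1.89 ± 0.23). Polr1a, the largest subunit of the polymerase, was at 19.3 and 17.7 RPKM against 5.66 RPKM (1.53 ± 0.20). Polr1b, the second-largest subunit, changed more, from 2.05 RPKM to 13.4 and 12.3 RPKM (2.20 ± 0.21), but stayed under 16 RPKM. The initiation factor Rrn3 (0.83 ± 0.33, limma-trend adjusted p = 0.0639) and Polr1c, a subunit shared with RNA polymerase III (0.30 ± 0.23, limma-trend adjusted p = 0.295), did not pass the test. Rrn3 was called without the C57Bl/6EiJ vehicle library (1.52) and without the strain term (1.05), and was at 0.48 after GC correction.

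The assembly factors of both subunits were higher as well. All 8 small-subunit genes passed an adjusted p under 0.05 and 7 were called, the exception being Rrp12 at 10.5 and 9.68 RPKM. Their changes lay close together, from 1.32 to 2.32. Wdr43, Utp20 and Wdr75, of the early small-subunit processome, had changes of 2.32, 2.25 and 2.23. Across all genes the changes in this contrast were related to GC content (Spearman's rho -0.41), and after GC correction these 3 genes were at 1.85, 1.92 and 1.78, below Rrp9, a U3 snoRNP protein, at 2.63 (1.68 uncorrected). Without the TGEM vehicle library of C57Bl/6EiJ the Wdr43 change was 1.64 and that of Rrp9 was 2.32. Wdr43 was at 51.2 and 53.0 RPKM against 7.80 RPKM (2.32 ± 0.31, limma-trend adjusted p = 1.78e-04). Of 11 large-subunit genes all passed an adjusted p under 0.05 and 8 were called, with changes of 1.13 to 3.04. Nop2, a ribosomal RNA methyltransferase, was at 53.5 and 49.6 RPKM against 8.08 RPKM (3.04 ± 0.39, limma-trend adjusted p = 1.33e-04), with 4.32 without that TGEM library. Gnl3 (nucleostemin, a nucleolar GTPase) was at 74.1 and 84.2 RPKM against 10.9 RPKM (2.68 ± 0.27, limma-trend adjusted p = 3.18e-05). Pes1, Bop1 and Wdr12 encode the PeBoW complex of the large subunit, and all 3 were called, with changes of 1.64, 1.30 and 2.08. The Bop1 call was lost without Scramble replicate 1 or without the vehicle TGEM library, as were those of Ppan and Nop14 without that library and those of Wdr12 and Heatr1 without Scramble replicate 2. After GC correction the changes of Bop1 and Ppan were 2.07 and 2.49. Nip7, a late large-subunit factor, became a call without Scramble replicate 2 (1.40).

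A list of 100 other ribosome biogenesis genes, which also held further processome and polymerase components, went the same way. Of these, 48 were called higher and 0 lower, 75 had an adjusted p under 0.05, and the median change was 1.30. The GTPase Gtpbp4 and the helicase Ddx18 were among the genes called, at 2.77 and 2.89. Other measures separated the same libraries. A list of 15 proliferation genes had a median change of 2.46 and summed to 550 to 844 RPKM in iBMDMs and 67.5 to 105 RPKM in TGEMs. Myc was at 49.0 and 22.7 RPKM in Scramble and at 8.29 RPKM in the C57Bl/6EiJ vehicle library (1.75 ± 0.43, limma-trend adjusted p = 0.00723). Their part in the difference was not tested. Source of the cells, immortalisation, culture and label date all differ between these groups. Xist reads and B cell and fibroblast markers differ too, and none of these can be told apart.

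A promoter window of 300 bases, 250 before to 50 after the RefSeq start (build GRCm38.p6), was given for 31 of 36 genes. In 29 of those windows the RefSeq start was also the start of the counted model. The E-box CACGTG, a palindrome that MYC and other factors of its class bind, was searched on both strands. It was found in 8 of 31 windows (25.8%) against 7.15% of all 32851 windows, with 1 window a gene in the list and several for some genes among all windows. The genes were Rrn3, Wdr43, Utp20, Tsr1, Nop2, Pes1, Nle1 and Mybbp1a. The AP-1 letters TGANTCA were in 0 of 31 windows against 7.81% of all, and the CRE letters TGACGTCA in 1, that of Ppan, against 1.79%. None of these 3 motifs contains another. A match describes letters in a window and shows no binding. The promoters of Dkc1, which had the largest called change of the genes with a window, and of Nop2, which had the largest called change of those with an E-box, are given 5′ to 3′ along the strand of the gene, with the E-box in capitals. Dkc1 lies at chrX:75095604-75095903 on the plus strand and Nop2 at chr6:125131633-125131932 on the plus strand. The pair was chosen after the matches were seen.
Dkc1: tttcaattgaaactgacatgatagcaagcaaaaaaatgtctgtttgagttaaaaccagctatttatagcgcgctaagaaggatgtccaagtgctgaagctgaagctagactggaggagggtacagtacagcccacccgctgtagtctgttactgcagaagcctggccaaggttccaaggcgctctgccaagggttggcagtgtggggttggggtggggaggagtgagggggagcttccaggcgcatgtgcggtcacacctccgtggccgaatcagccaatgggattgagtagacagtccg
Nop2: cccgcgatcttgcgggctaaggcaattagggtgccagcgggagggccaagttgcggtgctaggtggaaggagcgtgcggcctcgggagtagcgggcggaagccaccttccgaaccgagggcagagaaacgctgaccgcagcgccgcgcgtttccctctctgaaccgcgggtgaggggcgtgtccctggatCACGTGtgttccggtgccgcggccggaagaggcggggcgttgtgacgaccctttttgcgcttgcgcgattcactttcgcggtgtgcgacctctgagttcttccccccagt
Nop2 holds its E-box 60 bases before the start, and Dkc1 holds none. The choice of the pair fixed that the change of Dkc1 was the larger in the main fit. After GC correction Nop2 was at 3.45 and Dkc1 at 3.28.

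Setting Atf3KO against Scramble asked what follows targeting of Atf3 in the line. The ribosome biogenesis genes did not move together. Of 36, 2 were called higher (Nolc1 and Nop10) and 3 lower (Wdr12, Npm1 and Wdr43), against 7.84% and 4.69% of all 10691 tested genes, 12.5% in all. At an adjusted p under 0.05 there were 3 higher and 10 lower against 20.7% and 20.6% of all genes. The median change was -0.25 over the list and 0.05 over all genes. Models with reads numbered 10425 and 10631 in the libraries labelled Atf3KO, from 4397165 and 7236839 reads. In the other iBMDM libraries they numbered 11884 to 12533, from 1553296 to 18444441 reads. The part of this difference in the changes was not tested. Changes were related to base composition in these libraries. Across all genes Spearman's rho of log2 fold change and GC content was 0.50 over 10617 genes and over the 36 it was 0.53, so each call is given below also after a GC correction.

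Wdr12, of the PeBoW complex, had the largest change. It was at 1.21 and 1.37 RPKM in the libraries labelled Atf3KO, 14.1 and 19.7 for Scramble, 10.8 and 12.8 for JunKO, then 12.8 and 18.8 for JunDKO. Its Atf3KO libraries lay below every other iBMDM library, and the log2 fold change was -2.95 ± 0.26 (± SE, 2 libraries a group, limma-trend adjusted p = 2.91e-04) and -2.43 after GC correction. The call rests on a Scramble mean of 16.9 RPKM, just over the minimum, and was lost without Scramble replicate 2, where the change was -2.73. Neither Pes1 (-0.0027 ± 0.18) nor Bop1 (0.76 ± 0.31, limma-trend adjusted p = 0.0768), which act in the same complex, passed the test. Without Atf3KO replicate 1 Bop1 was called at 1.06, as was Nle1, a large-subunit factor, at 1.28, but after GC correction these 2 genes were at 0.098 and -0.054.

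Npm1 was at 143 and 102 RPKM in the libraries labelled Atf3KO and at 347 and 420.1 for Scramble, 334 and 448 for JunKO, then 362 and 385 for JunDKO. Its Atf3KO values again lay below all others, with a change of -1.65 ± 0.23 (limma-trend adjusted p = 0.00169) and of -1.17 after GC correction. Wdr43 was at 24.9 and 21.4 RPKM against 51.2 and 53.0 in Scramble (-1.14 ± 0.20, limma-trend adjusted p = 0.00419). In JunKO Wdr43 was at 35.2 and 49.5 RPKM and in JunDKO at 49.6 and 50.0 RPKM. The Wdr43 libraries did not overlap between Atf3KO and the other groups, but the call was lost after GC correction, at -0.70.

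The 2 genes called higher act with snoRNPs. Nolc1 was at 112 and 118 RPKM in the libraries labelled Atf3KO, 52.4 and 49.3 for Scramble, 53.9 and 57.1 for JunKO, then 54.0 and 53.7 for JunDKO. Its Atf3KO values stood clear of all others (1.16 ± 0.15, limma-trend adjusted p = 0.00148), with 1.05 after GC correction. The call was lost by quantile normalization, where the change was just short of 2-fold. Nop10 was at 95.7 and 75.5 RPKM against 46.6 and 36.6 in Scramble (1.02 ± 0.21, limma-trend adjusted p = 0.00714). In JunKO Nop10 was at 48.7 and 40.5 RPKM and in JunDKO at 74.6 and 64.1 RPKM. Its call was lost at equal library medians, after quantile normalization and without Atf3KO replicate 1 or Scramble replicate 2, with changes of 0.83 to 0.90, and was kept after GC correction, at 1.28.

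**Figure D3:**
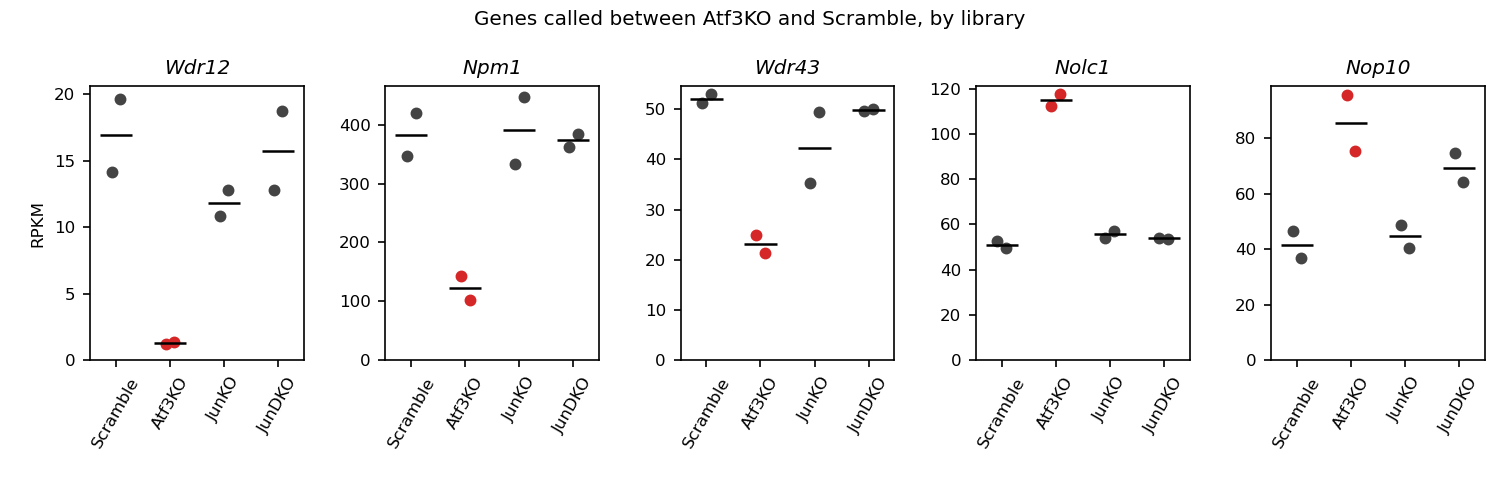
RPKM of the 5 genes called between Atf3KO and Scramble in each iBMDM library (points, Atf3KO in red) with the group mean (line), from an axis that starts at 0. Wdr12, Npm1 and Wdr43 are lowest and Nolc1 and Nop10 highest in the libraries labelled Atf3KO.

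Outside the calls, 8 further genes had an adjusted p under 0.05. Of the polymerase subunits, Polr1c was higher (0.51) and Polr1b lower (-0.81). After GC correction Polr1b kept its adjusted p under 0.05 (-0.89) and Polr1c did not (0.20, limma-trend adjusted p = 0.326). The box C/D proteins Nop56 (-0.66) and Nop58 (-0.73) were lower, while Nolc1, a chaperone of snoRNPs, was higher. After GC correction Nop56 still passed (-0.70) and Nop58 did not (-0.16, limma-trend adjusted p = 0.256). Nop56 was at 49.8 and 52.7 RPKM against 89.5 and 74.5 in Scramble. The small-subunit gene Wdr75 (-0.89, called without Atf3KO replicate 1 at -1.32, at equal library medians at -1.01 and by quantile normalization at -1.03) and the helicase Ddx21 (-0.53) were lower too, but neither passed after GC correction (-0.48 and -0.23, limma-trend adjusted p = 0.102 and 0.163). Fbl (-1.46) and the large-subunit gene Rrp1b (-1.05) were lower by over 2-fold but lay under 16 RPKM in both groups, and both passed after GC correction (-1.98 and -1.15). The Fbl value rests on 1 and 13 reads in the libraries labelled Atf3KO, and it was -0.91 and did not pass without Atf3KO replicate 1. In the remaining 23 genes the limma-trend adjusted p was 0.0608 or higher. Of these, GC correction took 6 under 0.05, and no share over all genes is given for that fit. Gar1 (-0.99), Rrp9 (-0.95), Rrp12 (-0.72), Ubtf (-0.55) and Polr1a (-0.41) were lower and Rrn3 (0.62) higher. Of the list of 100 other ribosome biogenesis genes, 3 were called higher and 7 lower, led by Rrp36 (1.22) and Gltscr2 (1.02) and by Gtpbp4 (-1.60) and Noc3l (-1.50), and their median was -0.12. Proliferation genes had a median of 0.71 in the same contrast, and Myc was at 42.9 and 67.4 RPKM (0.67 ± 0.42, limma-trend adjusted p = 0.223). The part of either was not tested. Atf3KO replicate 2 carries a later label date than the other iBMDM libraries. Within Atf3KO, Jun was at 17.9 and 46.2 RPKM in replicates 1 and 2.

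The promoter windows of Wdr12, with the largest called change here, and of Wdr43, called with an E-box, are given the same way. Wdr12 lies at chr1:60098085-60098384 on the minus strand and Wdr43 at chr17:71615965-71616264 on the plus strand, with its E-box in capitals beginning 17 bases after the start.
Wdr12: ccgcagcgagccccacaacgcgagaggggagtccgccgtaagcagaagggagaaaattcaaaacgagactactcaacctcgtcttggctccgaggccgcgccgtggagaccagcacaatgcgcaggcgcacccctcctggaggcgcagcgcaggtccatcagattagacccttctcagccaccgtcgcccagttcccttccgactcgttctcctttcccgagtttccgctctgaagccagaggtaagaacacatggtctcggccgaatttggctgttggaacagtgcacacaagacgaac
Wdr43: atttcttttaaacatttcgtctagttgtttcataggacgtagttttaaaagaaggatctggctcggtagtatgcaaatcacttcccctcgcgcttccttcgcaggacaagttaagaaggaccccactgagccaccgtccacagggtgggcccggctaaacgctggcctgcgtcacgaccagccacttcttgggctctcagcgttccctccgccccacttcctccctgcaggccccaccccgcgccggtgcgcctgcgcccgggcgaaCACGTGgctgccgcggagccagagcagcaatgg
Neither window held the AP-1 or the CRE letters on either strand.

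The libraries labelled JunKO and JunDKO were compared with Scramble in the same fit. No gene of the 36 was called in JunKO (0 of 36, against 0.196% of all genes). The count was 0 at a limma-trend adjusted p under 0.05 (0.281%), 0 at an unadjusted one (7.88%) and 0 by limma-voom. The limma-trend changes spanned -0.47 (Wdr12) to 0.42 (Nle1), with SEs of 0.15 to 0.44, and the median was -0.05. In the list of 100 other ribosome biogenesis genes 0 were called and 0 had an adjusted p under 0.05.

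In JunDKO 0 of 36 genes were called (4.97% of all genes), also by limma-voom. At a limma-trend adjusted p under 0.05 the count was 1, Polr1c (11.7% of all genes), and 5 genes, all higher, had an unadjusted p under 0.05 (27.5%). After GC correction 5 genes had an adjusted p under 0.05, and no share over all genes is given for that fit. Polr1c (0.96), Nop10 (0.75), Heatr1 (0.59) and Polr1a (0.52) were higher and Rrp9 (-0.79) lower. Polr1c was at 31.8 and 31.0 RPKM in JunDKO, 23.4 and 21.6 for Atf3KO, 20.9 and 18.9 for JunKO, then 14.8 and 16.3 for Scramble. Both JunDKO values lay above every other iBMDM value, with a change of 0.97 ± 0.17 (limma-trend adjusted p = 0.00900), just short of 2-fold. It became a call with a pseudocount of 0.1 or without Scramble replicate 2. The other 4 genes at an unadjusted p under 0.05 were Nop10 (0.73), Heatr1, a small-subunit factor (0.57), Gar1 (0.56) and Polr1a (0.52). At equal library medians these were at 0.45, 0.29, 0.28 and 0.24, and Polr1c was at 0.70. The median of the list was 0.09 and that of all genes 0.23. With libraries scaled to equal medians the list's median was -0.19, the reverse direction. Of 15 proliferation genes 6 were called higher in the same contrast, and their part was not tested. Of the list of 100 other genes, 0 were called and 1 had an adjusted p under 0.05.

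**Figure D4:**
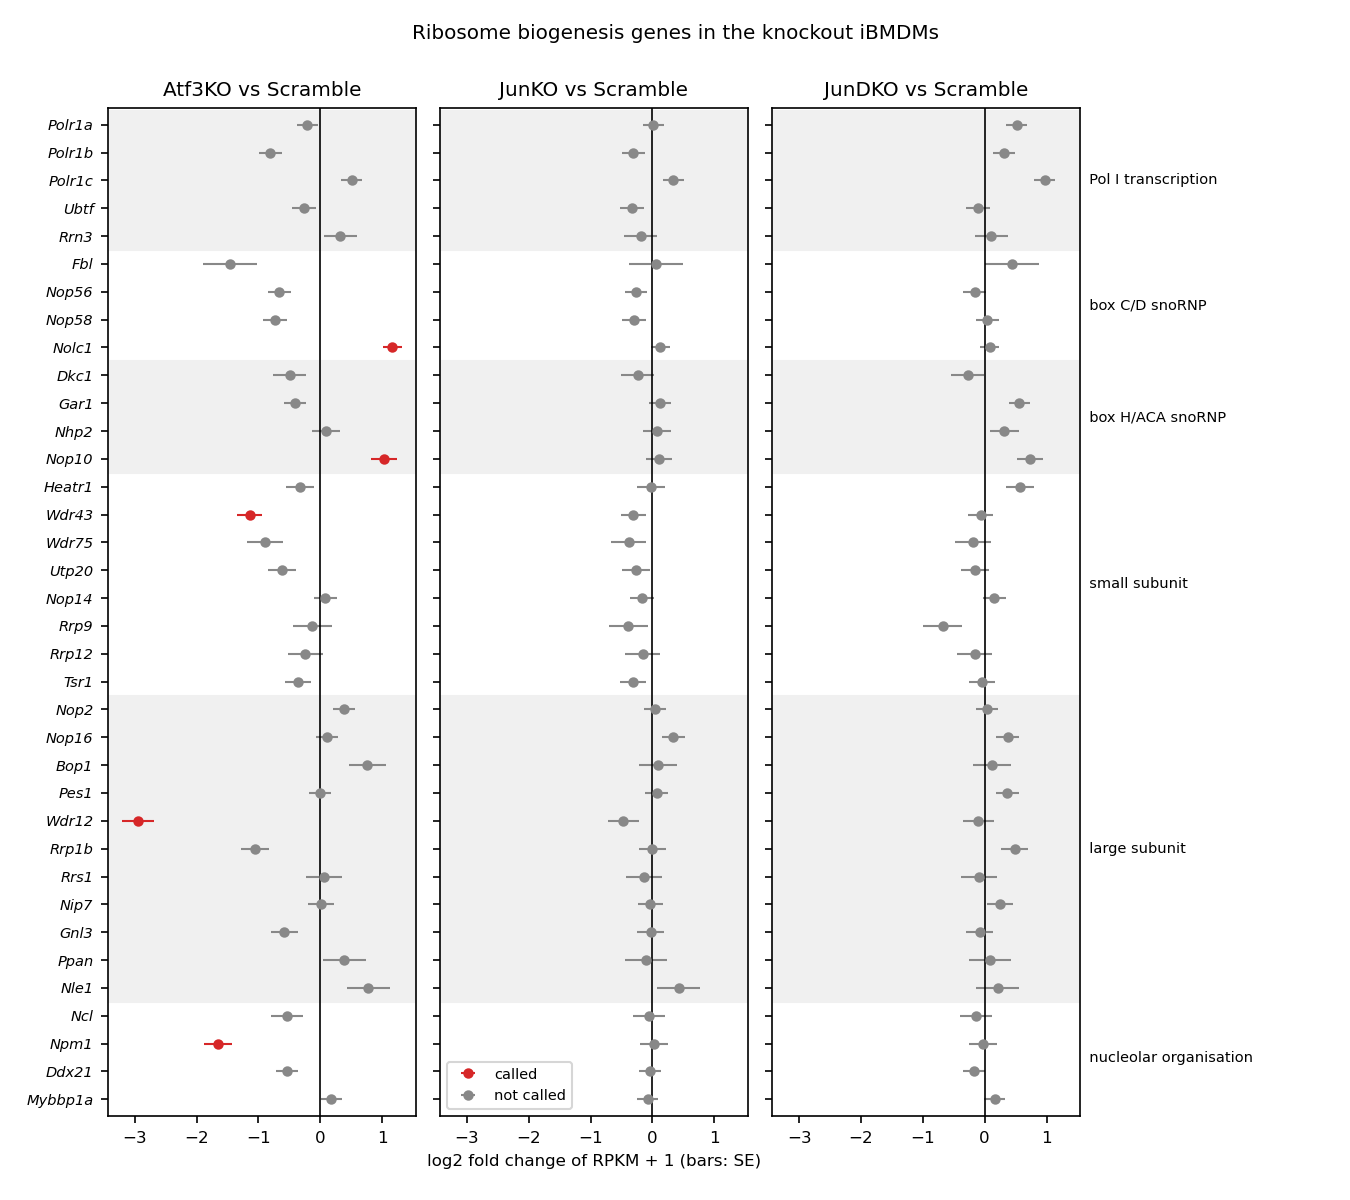
Log2 fold change of RPKM + 1 against Scramble for the 36 genes in Atf3KO, JunKO and JunDKO (2 libraries a group), with SE bars and called genes in red. Calls appear in Atf3KO alone, 2 higher and 3 lower, and the JunKO values lie between -0.47 and 0.42.

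The 3 comparisons with Scramble share its libraries, so the knockouts were also compared with each other. Between Atf3KO and JunDKO 4 genes were called (12.2% of all genes). Npm1 (-1.62 ± 0.23), Polr1b (-1.12 ± 0.18) and Wdr43 (-1.08 ± 0.20) were lower in Atf3KO and Nolc1 was higher (1.08 ± 0.15), with limma-trend adjusted p of 0.00139 to 0.00457. The Npm1 call was kept in all 11 alternatives. That of Wdr43 was lost after GC correction (-0.69), at equal library medians (-0.92) and without Atf3KO replicate 2. The Polr1b call was lost in 3 alternatives, which were equal library medians (-0.96), quantile normalization and leaving out JunDKO replicate 2, and the Nolc1 call after GC correction (0.96). Gar1 became a call in 5 alternatives, with a pseudocount of 0.1 (-1.02), with limma-voom (-1.07), after GC correction (-1.48) and without Atf3KO replicate 2 or JunDKO replicate 1. Heatr1 was called without Atf3KO replicate 1 (-1.11, and -0.90 in all libraries). Wdr75 and Nle1 were also called without that library, but were at -0.70 and 0.56 with it and at -0.34 and -0.16 after GC correction, where the direction of Nle1 turned. Polr1b was at 6.80 and 7.05 RPKM in Atf3KO and 15.7 and 16.7 RPKM in JunDKO. Between Atf3KO and JunKO 2 were called (9.71%), Npm1 (-1.67 ± 0.23) and Nolc1 (1.04 ± 0.15). Npm1 was again kept in all 11 alternatives, and Nolc1 was lost in 4, after GC correction (0.92), at equal library medians (0.95), by quantile normalization (0.89) and without JunKO replicate 1. Gar1 (-1.06) and Nop10 (1.17) became calls after GC correction, Nop10 also without Atf3KO replicate 2 (1.09) or JunKO replicate 1 (1.05). Wdr43 was called without JunKO replicate 1 (-1.07). Ppan, a large-subunit factor, was called without Atf3KO replicate 1 (1.06), but was at 0.50 in all libraries, -0.06 without Atf3KO replicate 2 and -0.24 after GC correction. Wdr12 changed by -2.85 and -2.48 against JunDKO and JunKO but lay under 16 RPKM in both groups, and was called against JunDKO without JunDKO replicate 1 (-3.11). Between JunDKO and JunKO 0 were called (3.50%), 0 passed a limma-trend adjusted p under 0.05 (8.14%) and 6 had an unadjusted p under 0.05 (24.9%). Npm1 (lower) and Nolc1 (higher) were thus called in each of the 3 contrasts that hold the libraries labelled Atf3KO, which those contrasts share.

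The comparison of KLA with vehicle in TGEMs asked what 1 h of TLR4 activation does to the genes, over both strains. Fbl, under a mean of 1 RPKM, was not tested. Of the other 35 genes 0 were called (1.13% of all 10357 tested genes), 0 passed a limma-trend adjusted p under 0.05 (1.53%) and 8 had an unadjusted p under 0.05, 1 higher and 7 lower (15.0%). The limma-voom count of calls was 0. The median change was -0.24 over the list and -0.15 over all genes. The fit had 2 residual degrees of freedom, and SEs were 0.23 to 0.40.

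The smallest p was that of Rrs1, a factor that brings the 5S particle to the large subunit. It was at 6.05 and 6.47 RPKM in the C57Bl/6EiJ and Balb/cJ vehicle libraries, 12.0 in the C57Bl/6EiJ KLA library and 19.1 and 18.1 in the Balb/cJ KLA libraries. All 3 KLA values lay above both vehicle values (1.18 ± 0.25, limma-trend adjusted p = 0.0917), and the gene was called at equal library medians. The other 2 of the smallest p-values went down. Gnl3 was at 10.9 and 23.5 RPKM with vehicle and at 6.12, 13.6 and 9.24 RPKM with KLA (-0.89 ± 0.27, limma-trend adjusted p = 0.211). Nolc1 was at 3.92 and 19.5 RPKM with vehicle and at 3.03, 6.73 and 4.75 RPKM with KLA (-1.05 ± 0.35, limma-trend adjusted p = 0.245), and without the Balb/cJ vehicle library its change was -0.29. The vehicle and KLA values of both genes overlapped across strains. In the same libraries Myc was called, from 8.29 and 4.29 RPKM to 62.5, 26.6 and 22.4 RPKM (2.48 ± 0.26, limma-trend adjusted p = 0.00407). Of 98 tested genes of the list of other ribosome biogenesis genes, 0 were called, 1 was lower at an adjusted p under 0.05 and the median was -0.31.

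Between Balb/cJ and C57Bl/6EiJ TGEMs 0 of 35 genes were called (1.16% of all genes), 0 passed a limma-trend adjusted p under 0.05 (2.31%) and 8 had an unadjusted p under 0.05, 4 in each direction (21.4%). The median was 0.00, and -0.08 over all genes. Among those with the smallest p-values were Nolc1 (1.30 ± 0.35, limma-trend adjusted p = 0.105), Ncl (1.25 ± 0.39, limma-trend adjusted p = 0.139) and Nop58 (1.00 ± 0.28, limma-trend adjusted p = 0.113). Changes were related to GC content here too (Spearman's rho -0.45 across all genes), and after GC correction Nolc1 was at 1.34, Ncl at 0.93, Nop58 at 0.67 and Gar1 at 1.01, with 0 of 35 genes called. Without the Balb/cJ vehicle library the difference of Gar1 was 0.081 (0.73 in all libraries), and that of Nolc1 was 0.72 with either one of the vehicle libraries left out and 2.06 without the C57Bl/6EiJ KLA library. Nop58 was at 4.88 and 5.02 RPKM in C57Bl/6EiJ and at 12.9, 12.1 and 7.68 RPKM in Balb/cJ, without overlap. Ncl was at 16.7 and 10.4 RPKM in C57Bl/6EiJ and at 51.1, 34.6 and 14.2 RPKM in Balb/cJ, where the last value, from the later label date, fell within the C57Bl/6EiJ range. Ncl was called with limma-voom (1.32) and without that library (1.60). The reads of each strain were aligned to that strain's own genome, and no label date holds both strains, so strain and date cannot be told apart. For the interaction of KLA with strain 0 of 35 genes were called (0.00% of all genes), and 3 had an unadjusted p under 0.05 (8.06%), with 1 residual degree of freedom. Those were Nop2 (1.79), Gar1 (-1.50) and Rrp1b (1.10), all under 10 RPKM in TGEMs.

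**Figure D5:**
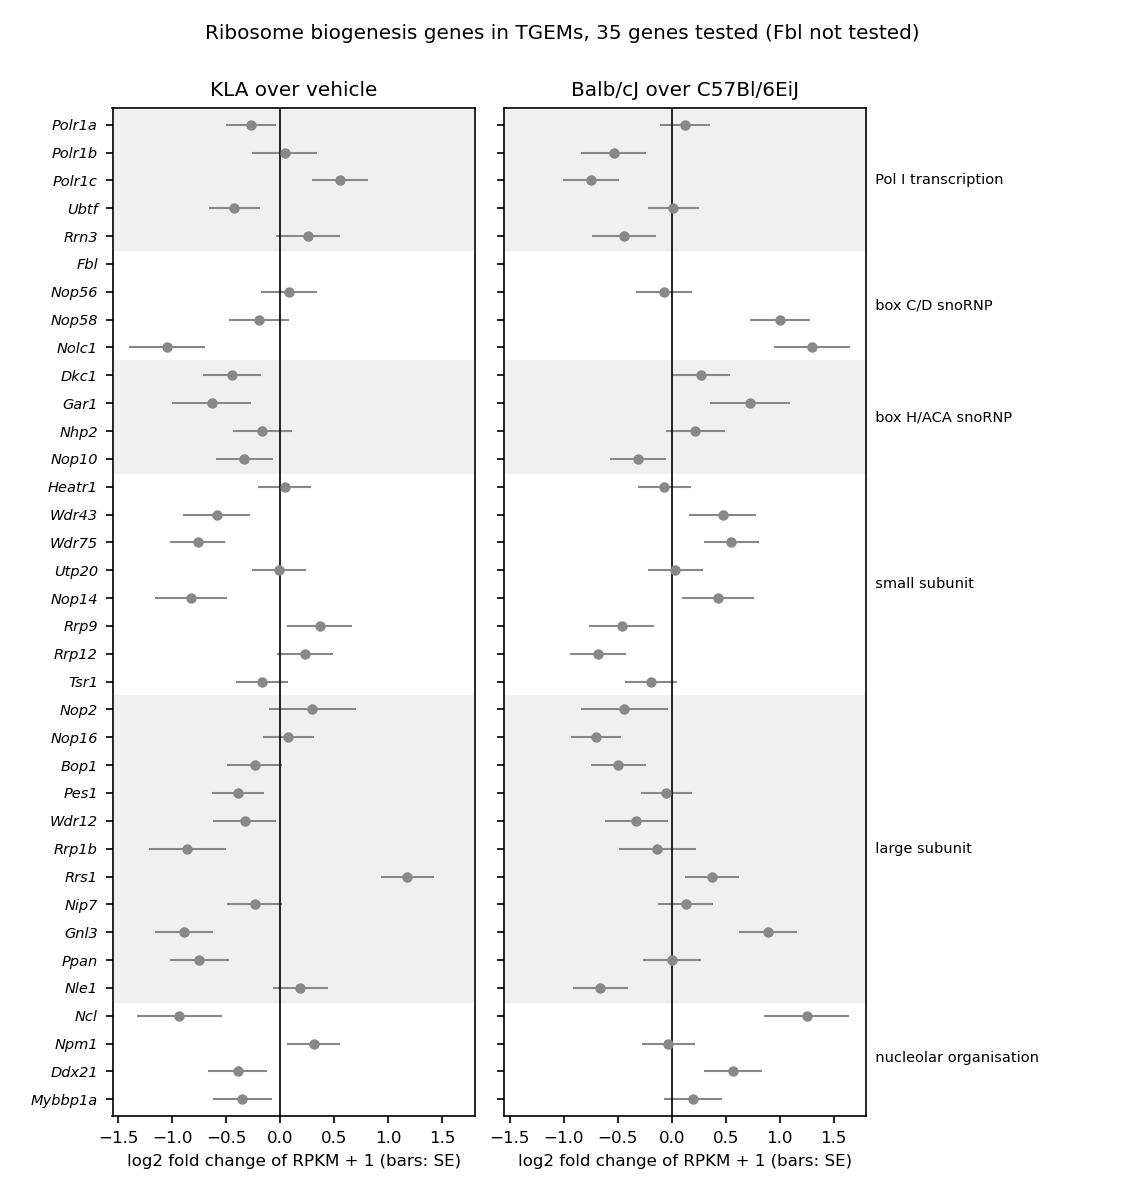
Log2 fold change of RPKM + 1 for KLA over vehicle and for Balb/cJ over C57Bl/6EiJ in 5 TGEM libraries, for the 35 genes tested, with SE bars. No gene was called in either panel, and the KLA values span -1.05 (Nolc1) to 1.18 (Rrs1).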

How the data were processed

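Per the labels and the study's methods, the authors aligned polyA RNA-seq reads with STAR at default settings to mm10 (Balb/cJ reads to a version carrying that strain's variants) and counted exons of condensed genes with HOMER. The deposited values are RPKM as the authors computed them, for 13 of the 17 samples. Tool versions and the use of strand are not given in the sources used here. The authors used edgeR for their own tests, which was not used here.

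Depth and whole reads were recovered from the steps of RPKM times exon length (100% of values up to 50 reads were whole, with a tolerance of 0.05 read or the rounding). Genes averaging 1 RPKM or more in the fitted libraries were tested on log2(RPKM + 1) with limma-trend (R 4.3.3, limma 3.58.1), so changes of low genes are understated. The iBMDM fit had a coefficient a group over 8 libraries (4 residual degrees of freedom), the TGEM fit treatment and strain over 5 (2), and the Scramble and TGEM contrast all 13 with a strain term (6). All tests were two-sided, with Benjamini-Hochberg adjustment across every tested gene. Any gene of the list could be named, with full statistics for the 12 largest called changes or the 3 smallest p-values where fewer than 3 were called. Genes of the second list were limited to the 2 highest and 2 lowest called. Alternatives were pseudocount, filter, scaling, limma-voom on recovered reads, a GC correction (spline with 5 degrees of freedom), the replicate number as a block, and leaving out libraries. The genes and lists were chosen with earlier results of these data known. Positions are 1-based on GRCm38, and 30 of 36 genes had the start and end of RefSeq. Exons of 9 genes overlap a gene on the other strand. The fit was run on simulated counts with a fixed dispersion that was not taken from these replicates.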

Additional observations from a re-analysis of the deposited data

How the results depend on the processing

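Of 198 summary values recomputed under alternatives, 173 stayed close to the main value, 22 moved further and 3 reversed direction. A median was close within 0.097, the pooled SD between replicates of the median level, and a call count when equal or similar. Of 401 recomputed calls of single genes 377 were kept, 24 lost and 0 reversed. The cause of a change was not tested. In Scramble iBMDMs against vehicle TGEMs the median log2 fold change was 2.34 when the pseudocount was 0.1, 1.83 with libraries scaled to equal medians, 1.85 after quantile normalization, 2.28 with limma-voom and 1.94 without a strain term, against 2.09. There 25 to 26 genes were called with a library left out. In Atf3KO against Scramble 1 gene was called at a 4-fold limit and 3 to 7 with a library left out (3 without Scramble replicate 2), and the median was -0.37 at equal library medians, -0.40 after quantile normalization and -0.28 to -0.15 with a library left out. For JunDKO 1 gene was called with a pseudocount of 0.1 and 0 to 1 with a library left out, and the median reversed to -0.19 at equal library medians and -0.025 by quantile normalization. Against JunDKO, Atf3KO had 2 calls at equal library medians and 3 to 7 with a library left out (7 without Atf3KO replicate 1). Against JunKO it had 1 at equal library medians, 1 by quantile normalization and 2 to 3 with a library left out. For KLA 1 gene was called at equal library medians, and the median was -0.10 there, -0.11 after quantile normalization and -0.14 within Balb/cJ. For strain 1 gene was called with limma-voom and 0 to 1 with a library left out, and the median spanned -0.11 to 0.073 with a library left out, reversed without the C57Bl/6EiJ KLA library (-0.11).

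The replicate numbers were not shown to pair the libraries. Correlations of replicate deviations were -0.21 to -0.12 where Atf3KO was involved and 0.18 to 0.22 otherwise. With the replicate number as a block 5 genes were called in Atf3KO against Scramble, 0 in JunKO and 0 in JunDKO, 4 against JunDKO and 2 against JunKO. Crossing the Atf3KO numbers, an alternative chosen after seeing the data, also gave 5. A GC correction without the RPKM minimum, likewise chosen after seeing the data, gave 6.

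Groups of 1 or 2 libraries and depths of 1553296 to 18444441 reads limit the precision, and a lone library was assumed to vary like the other groups.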
